A study of Mus musculus with 4 samples.

Results

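The NF-kB genes described here were the 5 subunits Rela, Rel, Relb, Nfkb1 and Nfkb2, the cytoplasmic inhibitors Nfkbia, Nfkbib and Nfkbie, the nuclear IkB gene Nfkbiz and the feedback regulator Tnfaip3. They were chosen by symbol as 10 of the 24497 gene rows of a deposited expression table, and all 10 reached the level needed for testing. RNA had been sequenced from cultured mouse acute myeloid leukaemia cells, 2 libraries from Tet2 KO cells and 2 from WT cells. The cells of both groups carried NRAS and AE9a, a truncated AML1-ETO fusion protein that drives leukaemia, and had been established from bone marrow haematopoietic stem cells of Tet2-/- mice, which lack exon 3 of Tet2, or of wild-type mice. Both groups were grown in stem cell factor (50 ng/ml), IL-3 and IL-6 (10 ng/ml each), G418 (1 mg/ml) and puromycin (2 µg/ml), with no other treatment labelled. The labels give neither the age of the donor mice nor the number of lines per genotype. They do not say whether replicate libraries were grown as separate cultures, and p-values then measure only how far these libraries spread, which may be technical.

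NF-kB is a family of dimeric transcription factors that IkB proteins hold in the cytoplasm. Signals from TNF, interleukin-1 and Toll-like receptors activate the IkB kinase, which marks the cytoplasmic IkB proteins for destruction and frees the dimers, and in the non-canonical route the p100 precursor made from Nfkb2 is processed to p52. Several inhibitors are themselves NF-kB target genes, which makes the pathway a feedback circuit. In myeloid leukaemia, NF-kB activity is known for its links to leukaemia stem cell survival and to inflammatory cytokine production.

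Levels are in TPM, transcript abundances corrected for length and scaled to a fixed total, which can be compared between genes. Such values carry no read counts, and library depth is unknown. Tet2 (chromosome 3, 133463679 to 133545139, mm10) was listed at 16.98 and 16.95 TPM in Tet2 KO cells and at 16.62 and 16.98 TPM in WT cells (log2 fold change 0.01, SE 0.0685, limma adjusted p = 0.868). A gene-level value holds reads of the remaining exons and does not check the deletion of exon 3. Of 11452 tested genes, 73.9% passed the test between the genotypes, and the median log2 fold change of all of them was 0.228, so the result of each member is also given on a median-centred scale, where the libraries are rescaled to bring that median near 0, and on a spike-in scale, where they are rescaled to the added ERCC RNAs. These took 5.48 and 5.33% of the total in Tet2 KO libraries and 4.38 and 4.43% in WT libraries. On the median-centred scale Tet2 was lower, at a log2 fold change of -0.22 (SE 0.0583, limma adjusted p = 0.00935). All 9 myeloid and leukaemia markers examined were present. Their summed level was 9576.5 and 9675.5 TPM in Tet2 KO cells, against 21306.9 and 21334.5 TPM in WT cells, most of it from the lysozyme gene Lyz2. The sum does not stand for the list, of which 5 genes were higher and 4 lower. On either other scale 4 were higher and 4 lower. Of all tested genes, 54.4% were higher and 19.5% lower as deposited. These shares were 33.3 and 34.4% on the median-centred scale and 29.6 and 37.8% on the spike-in scale. The stem cell factor receptor gene Kit was at 201.19 and 209.41 TPM in Tet2 KO cells, against 11.63 and 11.99 TPM in WT cells. The granule enzyme gene Mpo was 1.71-fold, Cd33 1.43-fold, Cebpa 1.37-fold and Ptprc 1.19-fold higher. Ptprc was not called on the median-centred scale (log2 fold change 0.0, limma adjusted p = 0.971) or the spike-in scale (-0.05, limma adjusted p = 0.451). Beside Lyz2, the lower genes were Itgam, Fcgr3 and Spi1, at 0.585, 0.739 and 0.746 of their WT means. Of 14 listed T, NK and B cell markers 12 were in the table, of which 11 stayed below 1 TPM in every library, with Cd3e, Cd3g and Ncr1 at 0, and the exception was the granule gene Nkg7. Of 13 stromal, endothelial and epithelial markers 12 stayed below 1 TPM, with Cxcl12, Krt8 and Lum at 0, and the exception was Pdgfrb. The summed levels were 128.8 and 129.3 TPM in Tet2 KO cells and 50.7 and 52.1 TPM in WT cells for the lymphoid markers. For the stromal group they were 17.5 and 18.4 TPM against 5.09 and 5.06 TPM. Nearly all of the lymphoid sum was Nkg7 and of the stromal sum Pdgfrb, so neither sum stands for its list. Myeloid markers moved with genotype in both directions, and their part in the NF-kB results was not tested.

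The promoter windows of 4 members are shown because their transcripts are classical targets of NF-kB itself. Of these, Rel was higher in Tet2 KO cells, Nfkb2 did not pass the test, and Nfkbia and Tnfaip3 were higher by the same small factor. RefSeq windows (GRCm38.p6, 250 bases before to 50 bases after a start, read 5′ to 3′ on the gene's strand) were found for 7 of the 10 members, and none were matched for Relb, Nfkb1 and Nfkbiz. They were searched on both strands for the kappaB consensus, a motif of 10 bases, and capitals mark every matched base. Matches on opposite strands overlap where the site is nearly palindromic.
Rel, chr11:23770920-23771219, minus strand: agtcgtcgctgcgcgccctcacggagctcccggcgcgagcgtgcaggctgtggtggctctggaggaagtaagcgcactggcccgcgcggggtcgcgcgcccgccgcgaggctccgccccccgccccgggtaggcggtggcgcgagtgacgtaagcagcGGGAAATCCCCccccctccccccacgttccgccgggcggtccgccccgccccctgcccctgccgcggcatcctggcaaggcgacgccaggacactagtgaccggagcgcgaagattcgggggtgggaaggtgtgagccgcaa
Nfkb2, chr19:46304487-46304786, plus strand: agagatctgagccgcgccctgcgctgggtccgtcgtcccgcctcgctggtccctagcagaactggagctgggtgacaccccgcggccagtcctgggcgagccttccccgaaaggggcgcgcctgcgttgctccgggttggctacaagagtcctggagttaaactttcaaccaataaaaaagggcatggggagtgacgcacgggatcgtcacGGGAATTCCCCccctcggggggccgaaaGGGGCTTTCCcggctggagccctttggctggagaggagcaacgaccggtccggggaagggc
Nfkbia, chr12:55492598-55492897, minus strand: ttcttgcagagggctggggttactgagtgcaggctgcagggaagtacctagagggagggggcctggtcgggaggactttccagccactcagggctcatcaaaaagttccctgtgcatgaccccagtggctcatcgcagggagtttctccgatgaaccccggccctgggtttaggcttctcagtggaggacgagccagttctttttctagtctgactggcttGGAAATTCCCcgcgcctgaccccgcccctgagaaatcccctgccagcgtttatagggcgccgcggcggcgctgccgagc
Tnfaip3, chr10:19015361-19015660, minus strand: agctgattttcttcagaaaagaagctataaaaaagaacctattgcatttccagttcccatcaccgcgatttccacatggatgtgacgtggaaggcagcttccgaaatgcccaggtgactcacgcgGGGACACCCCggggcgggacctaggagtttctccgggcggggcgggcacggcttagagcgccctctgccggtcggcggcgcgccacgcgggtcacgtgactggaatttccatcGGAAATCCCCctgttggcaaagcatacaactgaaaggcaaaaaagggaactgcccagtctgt
In the Rel window the matches were centred 87 and 86 bases upstream of the start. Those in the Nfkb2 window lay 34, 33 and 6 bases upstream, the Nfkbia match 24 bases upstream, and those of Tnfaip3 120 and 7 bases upstream. Nfkb2 has 3 annotated windows, all 3 with a match, and Tnfaip3 has 2, of which 1 held a match. Windows 2 and 3 of Nfkb2 overlap, and the only match of window 3 is a site also counted in window 2. Nfkbie (chr17:45555450-45555749, plus strand) held 1 match, GGGGGATTCC, centred 101 bases upstream, while the windows of Rela and Nfkbib held none. In all, 5 of 7 members with a window held the consensus, against 6.04% of 8905 tested genes with a window, and counted by window 7 of 10 held it, against 4.51% of the 32851 RefSeq windows of the same length. The members include classical NF-kB targets, so their high share follows in part from how they were chosen, and it was not tested. A match is a description of the letters and does not show binding.

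Of the 5 subunits, Rela, Rel, Relb and Nfkb1 were higher in Tet2 KO cells by 1.42-fold to 1.98-fold in mean TPM, and Nfkb2 did not pass the test. Rel (ENSMUSG00000020275.9, chromosome 11, 23736847 to 23770970, mm10) encodes c-Rel, a transactivating subunit of lymphoid and myeloid cells. It stood at 23.59 and 22.87 TPM in Tet2 KO cells and at 10.6 and 12.87 TPM in WT cells. Both Tet2 KO libraries lay far above both WT libraries, and the WT pair was the more spread. The log2 fold change, on the log2(TPM + 1) scale used throughout, was 0.93 (SE 0.0838, limma adjusted p = 9.87e-08), and 7.4% of tested genes had a larger one. Rel kept its call on the median-centred scale (0.70, limma adjusted p = 1.11e-04) and the spike-in scale (0.66, limma adjusted p = 1.13e-10). In bulk RNA, a change in the share of cells with a transcript and a change in RNA per cell cannot be told apart.

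Nfkb1 (chromosome 3, 135584655 to 135691547), which encodes the p105 precursor of p50, was the most abundant subunit in both genotypes. It was at 91.81 and 102.53 TPM in Tet2 KO cells, against 66.16 and 65.52 TPM in WT cells, with no overlap (log2 fold change 0.55, SE 0.0566, limma adjusted p = 2.42e-07). Rela (chromosome 19, 5637483 to 5648130), which encodes p65, the main transactivating partner of p50, was at 63.78 and 68.48 TPM in Tet2 KO cells, against 46.11 and 45.31 TPM in WT cells (log2 fold change 0.52, SE 0.056, limma adjusted p = 3.68e-07). Both genes of the canonical p50 and p65 dimer were higher by close factors, 1.48-fold for Nfkb1 and 1.45-fold for Rela. Both differences were smaller on the other scales, with log2 fold changes of 0.31 and 0.26 for Nfkb1 (limma adjusted p = 7.8e-04 and 2.54e-04) and of 0.28 and 0.23 for Rela (limma adjusted p = 8.61e-04 and 0.00151) on the median-centred and spike-in scales in that order. Relb (chromosome 7, 19606217 to 19629438), the partner of p52 in the non-canonical dimer, was the least abundant member in either genotype. It stood at 9.5 and 11.07 TPM in Tet2 KO cells, against 7.38 and 7.08 TPM in WT cells (log2 fold change 0.45, SE 0.0916, limma adjusted p = 3.18e-04). It was still called on the median-centred scale (log2 fold change 0.23, limma adjusted p = 0.0392), and its call was lost on the spike-in scale (0.19, limma adjusted p = 0.0845).

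Nfkb2 (chromosome 19, 46304320 to 46312385), which encodes p100 and its product p52, was listed at 22.37 and 22.06 TPM in Tet2 KO cells and at 22.38 and 23.27 TPM in WT cells. The groups were separated only by the second decimal. Its log2 fold change of -0.04 (SE 0.0637) did not pass (limma adjusted p = 0.608), whereas it was lower on the median-centred scale (-0.27, limma adjusted p = 0.00208) and on the spike-in scale (-0.32, limma adjusted p = 1.32e-04). The ratio of Nfkb1 to Nfkb2, in which the scale cancels, was 4.1 and 4.65 in Tet2 KO cells and 2.96 and 2.82 in WT cells, without overlap. Nfkb2 shares 531 exonic bases with the non-coding gene AC114539.1 on the opposite strand, for which no level was listed under that name. Nfkb2 also shares 299 with Psd on that strand, which was below 1 TPM in every library. The Nfkb2 value is uncertain to that extent, since the sources used here do not say whether counting used strand.

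**Figure D1:**
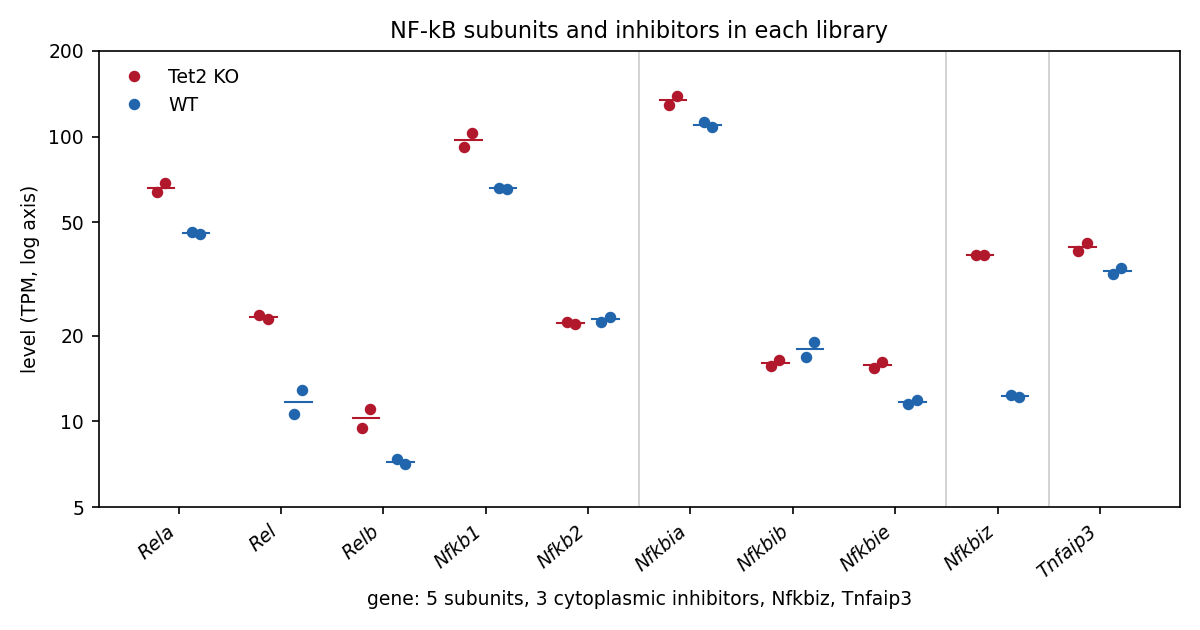
Levels of the 10 NF-kB genes in TPM on a log axis, with Tet2 KO libraries in red left of WT libraries in blue, a point for each library and a line at the mean of 2. Nfkbiz and Rel show the widest gaps between genotypes, at 3.12-fold and 1.98-fold, and Nfkb2 shows the smallest.

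The cytoplasmic inhibitors did not move as a block. Nfkbia (chromosome 12, 55489410 to 55492647) encodes IkB-alpha, the fast-resynthesised inhibitor of p65 and p50, and was the most abundant of all 10 genes. It was at 129.39 and 138.33 TPM in Tet2 KO cells, against 112.36 and 107.87 TPM in WT cells. The groups did not overlap, but the difference was small at 1.22-fold (log2 fold change 0.28, SE 0.0492, limma adjusted p = 8.62e-05). That rise was close to the median shift of all genes, with log2 fold changes of 0.03 on the median-centred scale (limma adjusted p = 0.526) and -0.01 on the spike-in scale (limma adjusted p = 0.838).

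Nfkbie (chromosome 17, 45555703 to 45563169) encodes IkB-epsilon, an inhibitor with slower resynthesis. It was at 15.4 and 16.16 TPM in Tet2 KO cells, against 11.52 and 11.87 TPM in WT cells (log2 fold change 0.40, SE 0.0745, limma adjusted p = 1.39e-04). The difference was called on the median-centred scale (0.17, limma adjusted p = 0.0381) and not on the spike-in scale (0.13, limma adjusted p = 0.19). Nfkbib (chromosome 7, 28758251 to 28767512) encodes IkB-beta and went the other way in level, with 15.66 and 16.46 TPM in Tet2 KO cells and 16.79 and 18.95 TPM in WT cells. This difference did not pass (log2 fold change -0.14, SE 0.0753, limma adjusted p = 0.0956), and on the median-centred scale Nfkbib was lower (-0.38, limma adjusted p = 0.00124), as it was on the spike-in scale (-0.42, limma adjusted p = 5.09e-06). On the opposite strand its exons overlap 314 bases of Ccer2, which was at 0.14 TPM or less in every library, and 42 bases of Sirt2. Sirt2 was at 99.49 and 106.09 TPM in Tet2 KO cells and at 92.37 and 90.62 TPM in WT cells, so the Nfkbib value is uncertain in the same way.

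Nfkbiz had the largest difference of the 10 genes. It encodes IkB-zeta, an atypical member of the family that is induced by Toll-like receptor and interleukin-1 signals and acts in the nucleus as a cofactor at secondary response genes such as Il6. Nfkbiz (ENSMUSG00000035356.17, chromosome 16, 55811375 to 55838899) was at 38.37 and 38.37 TPM in Tet2 KO cells and at 12.4 and 12.22 TPM in WT cells. The Tet2 KO libraries had the same deposited value to the second decimal, and the WT libraries lay close together and well below. The 3.12-fold difference (log2 fold change 1.56, SE 0.0634, limma adjusted p = 2.52e-12) was exceeded by 1.94% of tested genes, and it held on the median-centred scale (1.33, limma adjusted p = 1.8e-07) and the spike-in scale (1.28, limma adjusted p = 9.69e-27).

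Tnfaip3 (chromosome 10, 19000910 to 19015657) encodes A20, a ubiquitin-editing enzyme that shuts off signalling upstream of the IkB kinase. It was at 39.74 and 42.4 TPM in Tet2 KO cells, against 33.01 and 34.48 TPM in WT cells, a 1.22-fold difference without overlap (log2 fold change 0.28, SE 0.0598, limma adjusted p = 5.88e-04). As with Nfkbia, which has the same fold in mean TPM, its difference was not called on the median-centred scale (0.04, limma adjusted p = 0.549) or the spike-in scale (-0.01, limma adjusted p = 0.883).

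Counted together on the deposited scale, 8 of the 10 members were higher in Tet2 KO cells, where 54.4% of all tested genes were, and 0 were lower, where 19.5% were (limma, adjusted p under 0.05; at an unadjusted p under 0.05 in limma 0 were lower too). Both Tet2 KO libraries lay above both WT libraries for 8 members and for 62.4% of tested genes, and below them for the other 2 members and for 24.4% of tested genes. The median log2 fold change was 0.43 over the members and 0.228 over all tested genes. On the median-centred scale 6 members were higher, against 33.3% of tested genes, and Nfkb2 and Nfkbib were lower, against 34.4% (67.7% of tested genes were called). On the spike-in scale 4 were higher, against 29.6% of tested genes, and 2 were lower, against 37.8% (67.4% were called). The 4 genes higher on each of these scales were Rela, Rel, Nfkb1 and Nfkbiz.

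**Figure D2:**
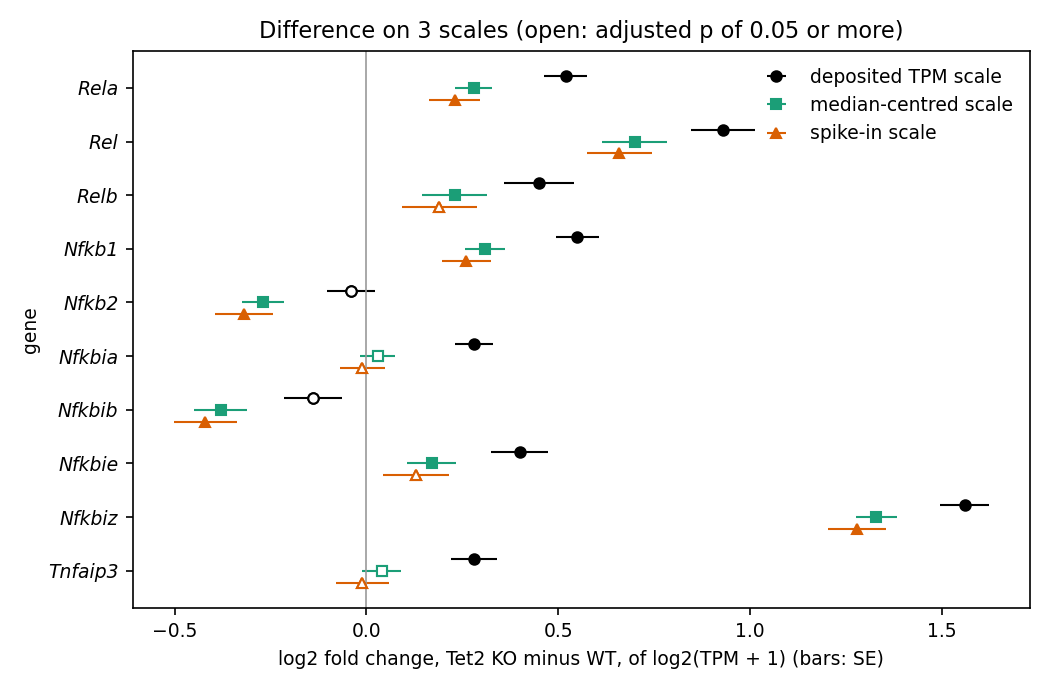
Log2 fold change, Tet2 KO minus WT, of log2(TPM + 1) with its SE, for each gene on the deposited scale (black), the median-centred scale (green) and the spike-in scale (orange); open symbols did not pass an adjusted p of 0.05. Nfkbiz is at 1.28 or more on all 3 scales, whereas Nfkbia and Tnfaip3 move to values near 0, -0.01 each on the spike-in scale.

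The make-up of the family was compared through shares within a library, which do not depend on the total. Among the 5 subunits, Rel took 11.2 and 10.1% of the summed TPM in Tet2 KO cells and 6.94 and 8.35% in WT cells. Nfkb2 took 10.6 and 9.72% in Tet2 KO cells and 14.7 and 15.1% in WT cells. The shares of Rel and Nfkb2 were close to each other in Tet2 KO cells, whereas Nfkb2 had the larger one in WT cells. The Rela share overlapped between genotypes, at 30.2 and 30.2% in Tet2 KO cells and 30.2 and 29.4% in WT cells, and so did that of Relb. Nfkb1 held 43.5 and 45.2% in Tet2 KO cells and 43.3 and 42.5% in WT cells.

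Among the 4 IkB genes, Nfkbiz took 19.3 and 18.3% of the summed TPM in Tet2 KO cells and 8.1 and 8.1% in WT cells. Nfkbia took 65.1 and 66.1% in Tet2 KO cells and 73.4 and 71.5% in WT cells, and Nfkbib took 7.88 and 7.86% against 11.0 and 12.6%. None of these 3 shares overlapped between genotypes, while that of Nfkbie did, at 7.75 and 7.72% in Tet2 KO cells and 7.53 and 7.87% in WT cells. The 3 cytoplasmic inhibitors together had 160.4 and 171.0 TPM in Tet2 KO cells, against 140.7 and 138.7 TPM in WT cells, and the 5 subunits 211.1 and 227.0 TPM against 152.6 and 154.1 TPM. The ratio of the first sum to the second was 0.757 ± 0.00509 in Tet2 KO cells and 0.911 ± 0.0151 in WT cells (SD, n = 2 each), a difference of -0.154. An exact two-sided permutation test gave p = 0.333 for this ratio and for every share without overlap, the smallest that 2 against 2 libraries allow.

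**Figure D3:**
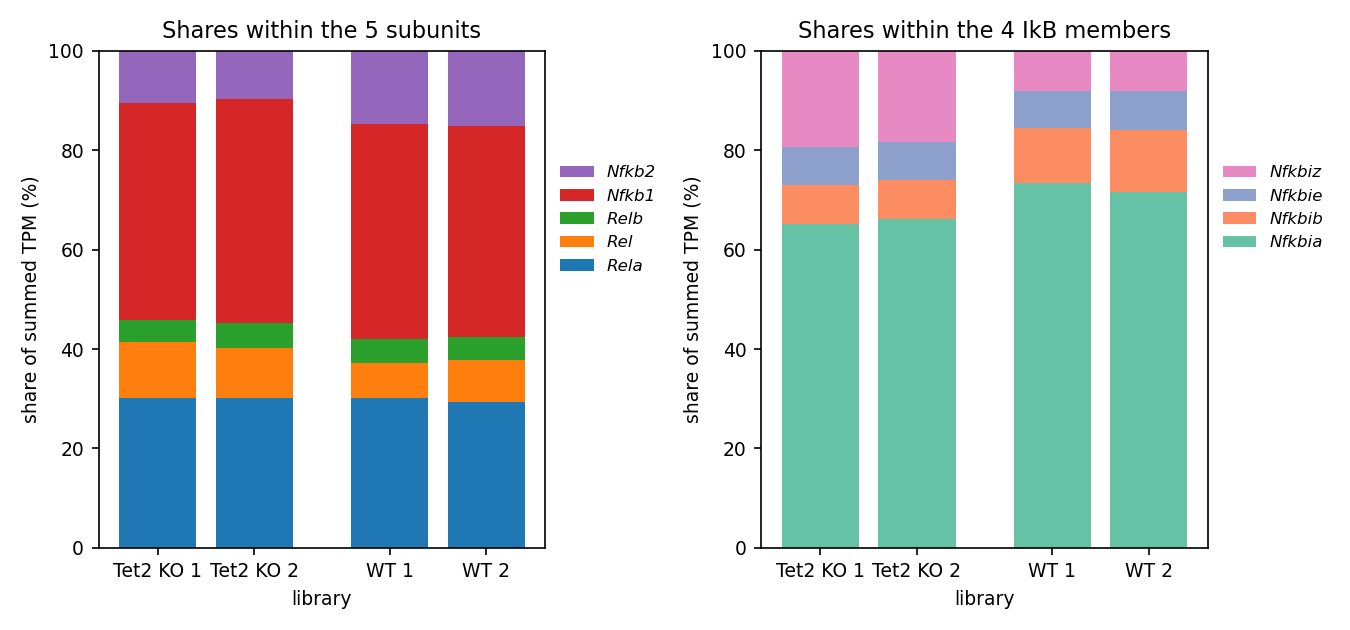
Stacked shares (%) of the summed TPM of the 5 subunits (left) and of the 4 IkB genes (right) in each library, with Tet2 KO libraries left of WT libraries. The Nfkbiz band spans 19.3 and 18.3% in Tet2 KO libraries and 8.1% in both WT libraries, and the Nfkb2 band is narrower in Tet2 KO libraries.

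In order of level, Nfkbia, Nfkb1, Rela and Tnfaip3 led in both genotypes, each apart from the next. In Tet2 KO cells they were followed by Nfkbiz, Rel, Nfkb2, Nfkbib, Nfkbie and Relb, where only Nfkbib and Nfkbie overlapped. In WT cells they were followed by Nfkb2, Nfkbib, Nfkbiz, Rel, Nfkbie and Relb, where Nfkbiz overlapped Rel and Rel overlapped Nfkbie.

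The rest of the pathway was described through 7 lists of 115 genes in all, 99 of them tested. The lists share a few genes, such as Tnf, Il1a, Il1b and Birc3, which are both components and targets. Over all tested genes 54.4% were higher, 19.5% were lower and the median log2 fold change was 0.228 on the deposited scale. On the median-centred scale 33.3% were higher and 34.4% lower, and on the spike-in scale 29.6% and 37.8%. The following counts stand beside the shares of their own scale. Over these lists 48 genes were higher and 36 lower on the deposited scale, 30 were higher and 46 lower on the median-centred scale, and 25 were higher and 46 lower on the spike-in scale. Of 33 pathway genes chosen as the largest called changes of their lists, 30 kept their call on both other scales, and the exceptions were Il18r1, Pdlim2 and Pias1. Being picked for their size in these same data, they do not stand for the rest of the lists.

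RNA of most inflammatory ligands and of several Toll-like receptors was lower in Tet2 KO cells. Of 5 tested ligand genes out of 10, Tnf, Il1a, Il1b and Il18 fell and Ltb rose. The median of their log2 fold changes was -0.56, with the same calls on both other scales. Tnf, the prototypical activator of the canonical route, was at 56.01 and 58.44 TPM in Tet2 KO cells, against 83.92 and 86.13 TPM in WT cells. Il1a and Il1b encode the interleukin-1 ligands. Il1a was at 6.79 and 5.73 TPM in Tet2 KO cells, against 15.29 and 17.29 TPM in WT cells, and Il1b at 12.11 and 11.38 TPM against 21.46 and 23.01 TPM. Ltb, which encodes the lymphotoxin beta chain that engages the non-canonical route, was at 16.32 and 17.71 TPM in Tet2 KO cells, against 10.42 and 7.34 TPM in WT cells (log2 fold change 0.88, limma adjusted p = 0.00224). Ltb was the ligand whose change ran opposite to the rest.

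Of 17 tested receptor genes out of 21, 5 rose and 10 fell around a median of -0.21 in log2 fold change, and on the median-centred scale 4 rose and 11 fell, or 3 and 11 on the spike-in scale. Tlr8, an RNA-sensing receptor gene, was at 1.25 and 1.31 TPM in Tet2 KO cells, against 13.76 and 14.27 TPM in WT cells. Tlr2 and Tlr1, whose products pair to sense bacterial lipopeptides, fell as well, with Tlr2 at 79.72 and 77.66 TPM in Tet2 KO cells, against 142.49 and 142.82 TPM in WT cells. The risers included Tlr4, the endotoxin receptor gene, at 50.91 and 43.14 TPM in Tet2 KO cells, against 29.13 and 31.16 TPM in WT cells. Il1rl1, which encodes the interleukin-33 receptor ST2, was at 100.62 and 99.13 TPM in Tet2 KO cells, against 33.58 and 32.77 TPM in WT cells. Il18r1, which encodes a chain of the interleukin-18 receptor, rose 1.42-fold, and lost its call on the spike-in scale (log2 fold change 0.47 as deposited and 0.20 there, limma adjusted p = 0.0514). On all 3 scales Il1rl1 and Tlr4 were higher and Tlr1, Tlr2 and Tlr8 lower, with Tlr4 at log2 fold changes of 0.62 as deposited, 0.38 on the median-centred scale and 0.33 on the spike-in scale.

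Between the receptors and the IkB kinase, all 24 adaptor and kinase genes were tested. On the deposited scale 16 rose and 4 fell, and on the median-centred scale 9 rose and 6 fell, or 6 and 6 on the spike-in scale. The list median of 0.23 equalled that of all genes. Irak2, a kinase gene of the interleukin-1 and Toll-like receptor complex, was at 40.65 and 42.46 TPM in Tet2 KO cells, against 27.21 and 25.62 TPM in WT cells. Traf6, the ubiquitin ligase gene acting next in that route, was at 22.9 and 22.19 TPM in Tet2 KO cells, against 14.71 and 14.71 TPM in WT cells. Birc2, which encodes the ubiquitin ligase cIAP1, rose 1.59-fold. On the spike-in scale the log2 fold changes of these 3 genes were 0.35 for Irak2 (0.63 as deposited), 0.30 for Traf6 (0.58) and 0.36 for Birc2 (0.64), each still called. Traf1 was the clearest fall, at 3.54 and 3.9 TPM in Tet2 KO cells, against 6.19 and 6.0 TPM in WT cells. The falls of Irak3 and of the adaptor gene Myd88 were small, at log2 fold changes of -0.16 and -0.13, and the number of genes lower became 1 without WT replicate 2 and 2 without Tet2 KO replicate 2.

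Of the 14 ubiquitin and RNA regulators, 10 rose and 2 fell, turning to 5 and 5 on the median-centred scale and to 4 and 5 on the spike-in scale. Otud7b, a deubiquitinase gene, was at 20.24 and 21.2 TPM in Tet2 KO cells, against 12.63 and 12.89 TPM in WT cells, with log2 fold changes of 0.66 as deposited and 0.38 on the spike-in scale. Zc3h12a, which encodes the RNase Regnase-1 that cleaves inflammatory transcripts such as Il6, was at 19.07 and 21.58 TPM in Tet2 KO cells, against 36.8 and 37.63 TPM in WT cells (log2 fold change -0.84, limma adjusted p = 1.06e-08). Of 10 other nuclear regulators 4 rose and 2 fell, or 1 and 3 on either other scale, and 1 fell when either WT replicate 1 or Tet2 KO replicate 1 was left out. Nfkbid, an atypical IkB gene like Nfkbiz, encodes the nuclear protein IkB-NS. Its level was 23.72 and 26.74 TPM in Tet2 KO cells, against 40.37 and 40.13 TPM in WT cells (log2 fold change -0.66, limma adjusted p = 1.5e-07). Bcl3, the third atypical IkB gene, did not pass, at 9.18 and 11.94 TPM in Tet2 KO cells and 8.63 and 9.03 TPM in WT cells. The 3 nuclear IkB genes differed in direction, with Nfkbiz higher and Nfkbid lower on each scale.

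Textbook NF-kB target genes moved both ways. Of 32 tested out of 36, 13 rose and 15 fell around a median of 0.02 in log2 fold change, or 10 and 18 on either other scale. The list leaves out the members described above, some of them classical targets too, so its counts and median do not cover these. The neutrophil chemokine genes Cxcl3 and Cxcl2 and the prostaglandin synthase gene Ptgs2 rose most. Cxcl3 was at 213.1 and 182.71 TPM in Tet2 KO cells, against 13.28 and 14.17 TPM in WT cells, and Ptgs2 at 26.84 and 23.46 TPM against 8.38 and 9.26 TPM. Among the falls beside Il1a and Il1b was Bcl2a1b, a survival gene of the BCL2 family, at 92.68 and 83.23 TPM in Tet2 KO cells, against 173.63 and 178.67 TPM in WT cells. It has near-identical copies, so its value is uncertain. The related genes Bcl2a1a and Bcl2a1d were counted as falls of their own, at log2 fold changes of -0.31 and -0.82. Of 10 genes listed as dependent on IkB-zeta in other cells, 6 were tested, of which 2 rose and 4 fell, also on both other scales. Il6, a cytokine gene that needs IkB-zeta in mouse macrophages, was at 67.54 and 62.31 TPM in Tet2 KO cells, against 27.24 and 27.54 TPM in WT cells (log2 fold change 1.21, limma adjusted p = 2.32e-11). Hp, the haptoglobin gene, was at 21.56 and 21.75 TPM in Tet2 KO cells, against 64.06 and 62.46 TPM in WT cells. Edn1, which encodes endothelin 1, and the monocyte chemokine gene Ccl2 fell too, to 0.39 and 0.3 TPM and to 386.26 and 366.52 TPM in Tet2 KO cells, against 5.6 and 4.84 TPM and 508.04 and 513.05 TPM in WT cells.

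**Figure D4:**
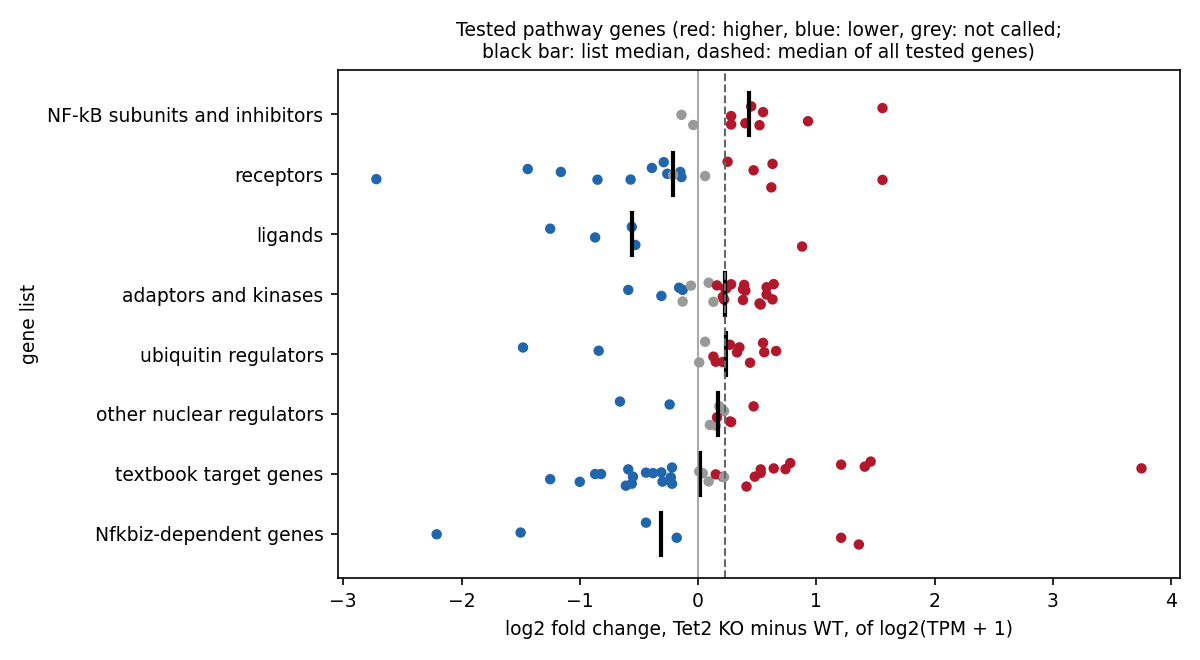
Log2 fold change, Tet2 KO minus WT, of log2(TPM + 1) for each tested gene of the NF-kB members and the 7 pathway lists, on the deposited scale, coloured by call, with list medians as black bars and the median of all tested genes dashed at 0.228. The members centre on 0.43, the adaptors and kinases on 0.23, and the ligands and receptors on -0.56 and -0.21.

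Among all tested genes with a standard symbol, those closest to Nfkbiz over the 4 libraries, by Euclidean distance of centred log2(TPM + 1), were Il1rl1 (0.0185), Tgtp2 (0.024) and Igfbp7 (0.0352). Il1rl1 is also the receptor gene with the largest rise in its list. Tgtp2, an interferon-induced GTPase gene with a near-identical copy and so of uncertain value, was at 17.21 and 17.14 TPM in Tet2 KO cells, against 5.23 and 5.01 TPM in WT cells. Igfbp7, which encodes a secreted binding protein, was at 67.5 and 69.57 TPM in Tet2 KO cells, against 22.59 and 22.65 TPM in WT cells. With 2 libraries a group, this likeness is mainly a likeness in the size of the difference between genotypes.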

How the data were processed

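RNA had been extracted with QIAzol and sequenced from libraries made with a stranded mRNA kit, per the labels' protocols. STAR and RSEM were run on mm10, per the submitters' processing notes (versions, annotation and filters: not given in the sources used here). Their TPM values, as deposited by the authors, fill 1 table of 24589 rows, 92 of them ERCC spike-ins, with the same total in each library within rounding. TPM keep no depth, so no interval or floor was computed, and a change in abundant transcripts moves every other value.

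Tet2 KO was compared with WT by limma 3.58.1 (R 4.3.3, statmod 1.5.0) on log2(TPM + 1), with trend and robust estimation, for the 11452 genes that reached 1 TPM in 2 or more libraries, spike-ins left out. Adjusted p-values are Benjamini-Hochberg over all genes tested, two-sided, threshold 0.05. The pseudocount makes log2 fold changes of low genes too small; a plain "fold" is a ratio of mean TPM. Scaling by the median ratio of the libraries gives the median-centred scale, and dividing by the summed ERCC rows gives the spike-in scale. The other settings were pseudocounts of 0.1 and 5, no filter or 5 TPM, quantile normalization, limma without trend and robust estimation, a replicate block and leaving out each library. The fit was tested on simulated data for Tet2 KO against WT (11452 genes). In 10 draws it recovered 90 to 98 of 100 genes shifted by 0.5 in log2 and 98 to 100 of 100 shifted by 1. Of its calls 5.37 to 19.5% were false, above the nominal rate. Each draw shifted 200 genes, all upward, whereas 73.9% of tested genes passed in the data. The false rate of the draws therefore cannot be carried over to these calls. Calls just under the threshold may still be less secure than their adjusted p. Shares and ratios were tested with exact permutations.

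Members, lists and tests were chosen with earlier results of these data known. Named genes are all members and Tet2, of each list up to 3 called genes in each direction by largest change (groups apart, the higher one averaging 5 TPM or more), and the 3 genes nearest to Nfkbiz. Bcl3 was named beyond this rule, after its values were seen. Gene positions come from GENCODE M21 (mm10) and promoter windows from RefSeq (GRCm38.p6). Plots used matplotlib 3.10.9 (Python 3.11.15).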

Additional observations from a re-analysis of the deposited data

How the results depend on the processing

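Over 13 alternatives for each member (130 in all), 115 kept direction and call, and none of the exceptions concerned Rela, Rel, Nfkb1 or Nfkbiz. The exceptions came with scaling. Median-ratio scaling and quantile normalization take away most of the shift of all genes by construction. Spike-in scaling rests on the ERCC rows alone, and after it the median log2 fold change of all tested genes was -0.044. The number of members higher was 8 on the deposited scale, 4 with spike-in scaling and 5 with quantile normalization, and 2 were lower under either of these and under median-ratio scaling. On the spike-in scale, Nfkbia and Tnfaip3 changed sign, to -0.01 each. The genes called higher and lower numbered 6225 and 2238 on the deposited scale, 3815 and 3936 after median-ratio scaling, 3394 and 4324 after spike-in scaling and 3951 and 3734 after quantile normalization. In the pathway lists the genes higher fell to 30, 25 and 31 under the same settings in that order, against 48. Tet2 turned to -0.22, -0.27 and -0.25 in the same order, and ranged from -0.0012 to 0.03 with 1 library left out. The share of Nfkbie among the IkB genes differed by 0.0372 percentage points on the deposited scale and by -0.699 with quantile normalization. Leaving out each library kept 8 members higher and 0 lower. A term for the replicate block also left 8 members higher, with 6179 genes higher and 2211 lower, and changed no member's call. The numbers were not taken as pairs, since the deviations of same-numbered libraries had a correlation of -0.0852 over 7941 genes and the labels name no shared source. With 2 libraries a group and no depth, the precision of low genes is limited.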

Other observations

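Of 8905 tested genes with a RefSeq promoter window, 538 held the kappaB consensus. Of these 59.1% were higher and 17.5% lower in Tet2 KO cells (median log2 fold change 0.26), against 54.2% higher and 19.6% lower of the 8367 genes without it (median 0.22). The difference was not tested.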
